A study of Mus musculus with 6 samples.

Results

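The genes described here are 37 genes characteristic of monocytes and macrophages, taken from a list of mouse symbols and matched to Ensembl gene identifiers. All 37 were found among the 24815 identifiers in the data, and 28 of them had enough counts to be tested with all 6 libraries. The symbols were listed as genes of this lineage and not by a threshold on these values, although earlier results of these data were known when the list was made. RNA was sequenced from common myeloid progenitors, which give rise to red cells and platelets on one side and to granulocytes and monocytes on the other, sorted from fetal liver of C57BL/6 mice at E13.5 (embryonic day).

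There were 3 wild-type (WT) libraries, named A, F and L, and 3 -77 mutant libraries, named C, D and Q, from embryos homozygous (-77-/-) for loss of the -77 enhancer of Gata2, a distal regulatory element of this transcription factor gene. The comparison addresses which transcripts of these progenitors differ when the enhancer is missing. Both genotypes share strain, stage and sort. The sort left out cells with Sca-1, the myeloid marker Gr-1, the erythroid marker TER-119, CD41 or CD48, B cells (B220) and T cells (CD3, CD4, CD5, CD8), and took those with CD34, c-kit and low Fc receptor. CD11b and F4/80, the proteins of the members Itgam and Adgre1, were not among the markers, whereas Gr-1 antibodies are known to bind Ly6C as well as Ly6G, so the Ly6c genes touch on the gate. Whether a library is 1 embryo or a pool is not stated, and p-values therefore reflect the spread among these 6 samples, which may be technical. The labels name no restriction of the deletion to a cell type, and in sorted bulk RNA fewer cells of a type and less RNA per cell cannot be told apart.

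Monocytes arise from granulocyte and monocyte progenitors under the transcription factors PU.1 and IRF8 and the receptor for the growth factor CSF1, and they mature into phagocytes that engulf, oxidise and digest particles. In the fetal liver, macrophages also surround maturing erythroblasts and take up their expelled nuclei. The members cover the equipment of this lineage: receptors for trafficking, Fc receptors with their signalling adaptors, subunits of the superoxide-producing oxidase, lysosomal proteins, MS4A membrane proteins, complement C1q, and receptors of tissue macrophages.

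Depth ran from 14473913 to 30596279 expected counts (reads apportioned to genes by RSEM). Gata2 had 78.6, 57.4 and 63.9 CPM (library-size-scaled counts, with edgeR's TMM factors) in wild types A, F and L and 8.92, 16.5 and 17.8 in mutants C, D and Q, so all 3 mutants lay below all 3 wild types, with an edgeR adjusted p of 0.068 over all 6 libraries and 0.0019 without mutant C. Mutant C stood apart from the rest. Its correlations of log2 CPM with the other libraries were 0.885 to 0.926, against 0.980 to 0.992 among the others, and ribosomal protein genes took 21.5% of its counts, against 6.61% to 8.98%. Weighted by counts, its genes averaged 1781 bases, against 2834 to 3124 in the others. For this reason the fits are given with and without mutant C. Of 6 markers of common myeloid progenitors, the gate antigen Cd34 had 685, 862 and 861 CPM in the wild types and 1254, 998 and 1024 in the mutants, and Mpo, a granule enzyme, had at least 1691 CPM in every library. Myb, a transcription factor of progenitors, had 399, 371 and 378 CPM against 159, 257 and 260, and was called lower without mutant C (log2 change -0.57, edgeR adjusted p 0.0199, or 0.578 with it). The summed TPM of the 6 was 4034, 2899 and 2755 in wild type and 880 (mutant C), 3055 and 2711 in the mutants. In CPM the sum was 4736, 3966 and 3837 in wild type and 3412 (mutant C), 4122 and 4083 in the mutants. Mutant C was thus lowest on either scale, but by much less in CPM.

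Regulatory sequence of the members is shown first because PU.1, the product of Spi1, is a factor known to act at many monocyte promoters. RefSeq start sites were at hand for 30 of the 37 genes, and the 250 bases before each start were searched on both strands for the letters GAGGAAG, a PU.1 core. They stood in 10 of the 30 members (33.3%), beside 3244 of 27025 genes in all (12.0%). The core of GATA factors, GATAA, stood in 10 members (33.3%, beside 25.5% of genes), and TTGCNNAA, a C/EBP core, in 3 (10%, beside 10.8% of genes). No motif contains another, a match is a description and not a bound site, and no test was made. The 3 tested members below carry the PU.1 core close to a single annotated start, and their 250 bases (GRCm38.p6, written 5′ to 3′ on the gene's strand, with the core or its reverse complement in capitals) show where it lies. In Fcgr1 (chr3:96293970-96294219, minus strand) the match begins at -56, in Fcgr4 (chr1:171018676-171018925, plus strand) at -23, and in Itgam (chr7:128062390-128062639, plus strand) at -84, with the start at the right-hand end of each line.
Fcgr1: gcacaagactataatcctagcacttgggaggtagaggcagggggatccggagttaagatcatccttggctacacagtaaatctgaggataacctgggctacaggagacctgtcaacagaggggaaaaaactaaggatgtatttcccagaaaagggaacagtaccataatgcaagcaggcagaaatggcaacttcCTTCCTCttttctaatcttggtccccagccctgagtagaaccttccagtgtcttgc
Fcgr4: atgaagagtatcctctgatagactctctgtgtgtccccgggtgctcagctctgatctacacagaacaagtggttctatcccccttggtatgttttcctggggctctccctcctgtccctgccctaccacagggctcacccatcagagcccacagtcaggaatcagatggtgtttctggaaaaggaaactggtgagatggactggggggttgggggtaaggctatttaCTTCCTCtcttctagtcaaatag
Itgam: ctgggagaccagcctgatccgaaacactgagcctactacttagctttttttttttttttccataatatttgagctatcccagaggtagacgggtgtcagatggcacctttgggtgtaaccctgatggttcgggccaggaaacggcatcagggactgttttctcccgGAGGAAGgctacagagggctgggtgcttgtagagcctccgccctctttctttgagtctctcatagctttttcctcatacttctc

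In wild-type progenitors the members spanned more than 3 orders of magnitude. Levels between genes are compared in TPM (transcript abundance per length, scaled to a common total). The most abundant were Tyrobp, the adaptor DAP12 (mean 288 ± 33.7 TPM, SD, n = 3), Lyz2, lysozyme M (215 ± 3.41 TPM), Cyba, the p22phox oxidase subunit (160 ± 7.26 TPM), and Fcer1g, the Fc receptor gamma chain (128 ± 2.79 TPM). F13a1, the A subunit of coagulation factor XIII (118 ± 13.1 TPM), and Ncf1, the p47phox oxidase subunit (102 ± 7.30 TPM), followed. Only these 6 members reached a wild-type mean of 100 TPM, 18 reached 10 TPM, 25 reached 1 TPM, and 12 stayed under 1 TPM. Those under 1 TPM included all 3 C1q chains (0.293 to 0.977 TPM) and 5 receptors or secreted proteins of tissue macrophages (Msr1, Mrc1, Timd4, Vcam1 and Cd5l, 0.0967 to 0.56 TPM). RNA from this sort thus held Tyrobp, Fcer1g, Lyz2, Cyba and Ncf1 above 100 TPM. The other oxidase subunits on the list were lower, Ncf4 at 48.4 TPM and Cybb at 16.8 TPM. Most of the C1q and tissue macrophage transcripts were under 1 TPM, apart from Adgre1 (F4/80) at 3.35 TPM and Aif1 (IBA1) at 2.87 TPM. Which of the sorted cells held these transcripts was not tested. Of the 36 neighbouring pairs in this order, 26 overlapped across the 3 wild-type libraries. The steps from Tyrobp to Lyz2, Lyz2 to Cyba and Cyba to Fcer1g did not overlap, whereas Fcer1g, F13a1 and Ncf1 could not be ordered beyond their spread as neighbours.

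**Figure D1:**
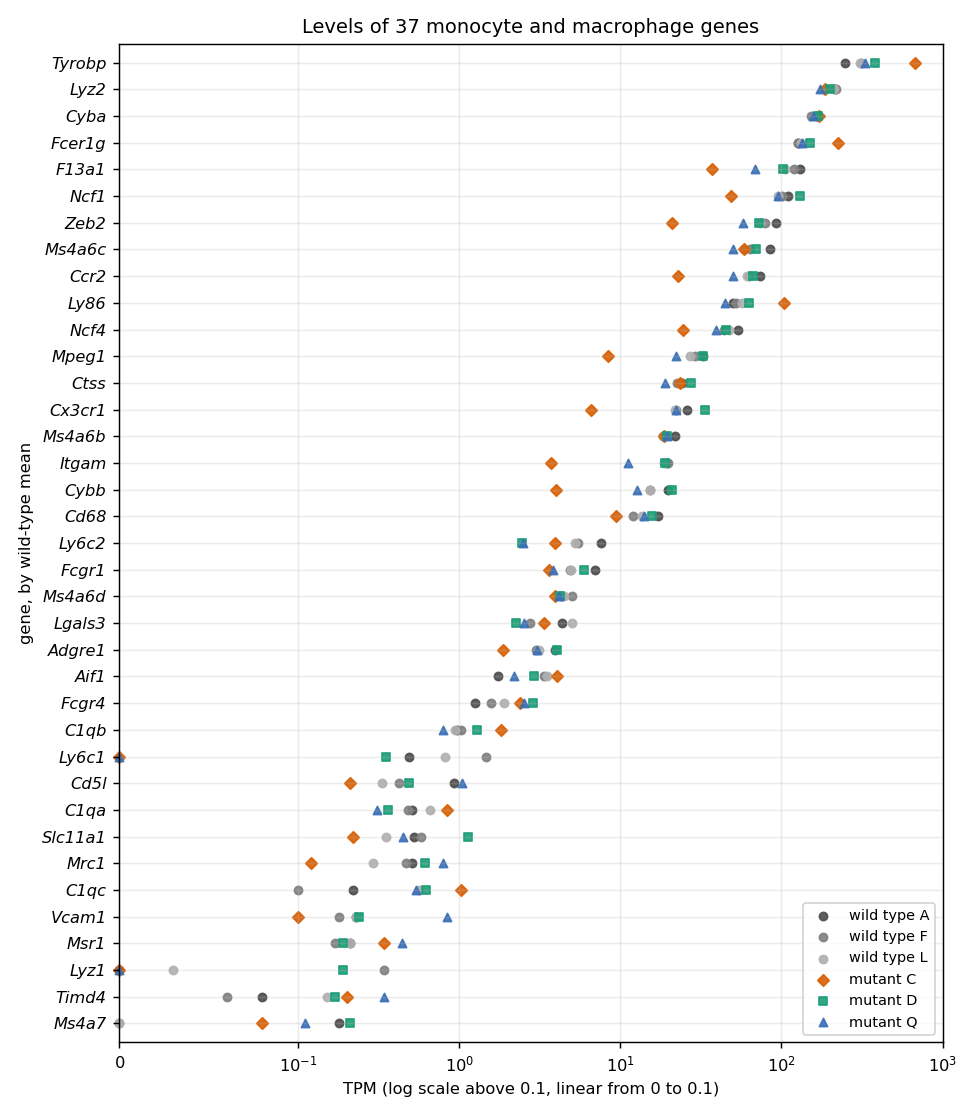
Level of each of the 37 genes in TPM (x axis, logarithmic above 0.1 and linear below) in the 3 wild-type libraries (grey circles) and mutants C (diamonds), D (squares) and Q (triangles), ordered by wild-type mean. Tyrobp stands at the top at 249.6 to 309.6 TPM in wild type, and 12 genes lie under 1 TPM.

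No member passed the test for a difference between genotypes. With all 6 libraries, edgeR's quasi-likelihood test with Benjamini-Hochberg adjustment over 12222 genes called 0 of 28 members higher and 0 lower, where it called 0.00818% of all genes higher and 0.147% lower. Without mutant C, 0 of 29 members were called in either direction, where 0.0793% of 12614 genes were called higher and 0.761% lower. The smallest adjusted p of any member in edgeR was 0.578 with all 6 libraries and 0.106 without mutant C. At an unadjusted p under 0.05, edgeR held 2 of 28 members (7.14%, beside 4.8% of all genes) with all 6 libraries and 8 of 29 (27.6%, beside 10.4% of all genes) without mutant C. DESeq2 held 8 of 37 members at that unadjusted level and limma-voom 1 of 28, and neither called a member after adjustment. The share of all genes at that level was not counted for either method, so these counts have no background beside them.

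The median of the members lay above wild type in mutant C and near it in mutants D and Q. The median of the 28 fitted log2 changes was 0.53 with all 6 libraries, beside -0.02 for all genes, with 21 above 0 and 7 below. Without mutant C the median over 29 members was 0.10, beside -0.01 for all genes, with 19 above 0 and 10 below. Against the wild-type mean, the median log2 ratio of the 28 members was 1.03 in mutant C, 0.18 in mutant D and -0.08 in mutant Q. The sum of all 37 members' TPM was 1550, 1499 and 1479 in wild types A, F and L and 1676, 1646 and 1348 in mutants C, D and Q, so the groups overlapped in this per-length measure.

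The members' ratios in mutant C were ordered by gene length. Across the 28 members, the Spearman correlation of the log2 ratio to wild type with gene length was -0.86 in mutant C, 0.06 in mutant D and -0.24 in mutant Q, beside -0.73, -0.07 and -0.38 over 12106 genes. These are correlations across genes of 1 library, which share its depth and composition, and are given as descriptions. All 14 members shorter than 1500 bases were above the wild-type mean in mutant C (median log2 ratio 1.66, range 0.59 to 2.83), while 7 of the 14 longer members were above and 7 below (median 0.02, range -1.18 to 1.51). In mutant D, the medians of the shorter and longer members were both 0.18, and in mutant Q they were -0.06 and -0.17. With a gene-length term added to the edgeR fit of all 6 libraries, the members' median was 0.26 and again 0 of 28 were called.

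**Figure D2:**
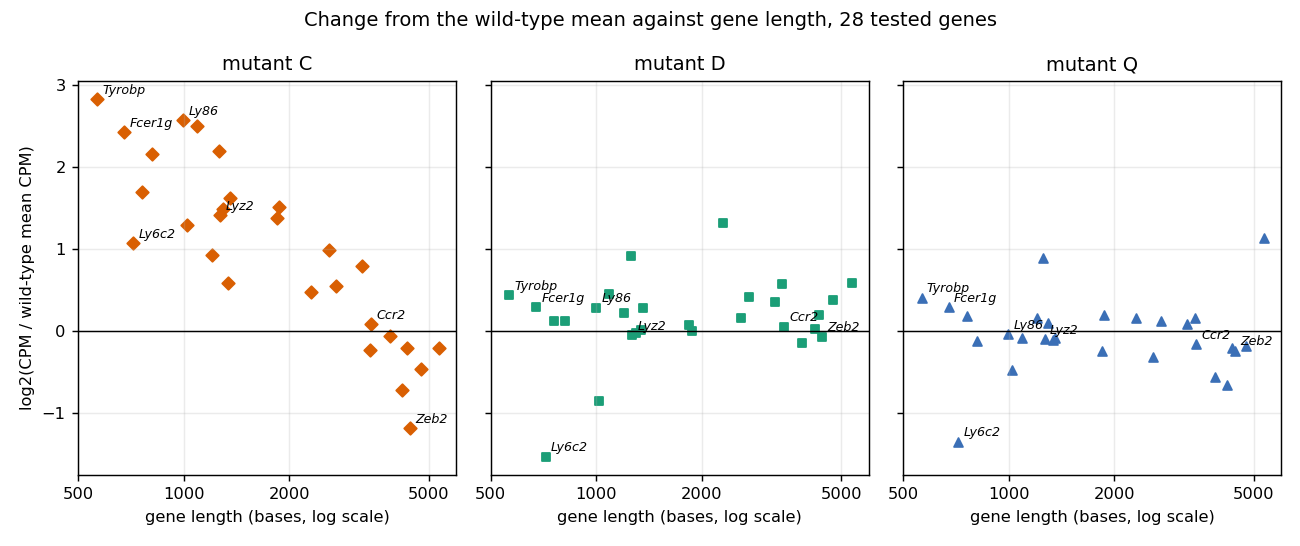
Log2 ratio of each tested member's CPM to the wild-type mean (y axis) against gene length in bases (x axis, logarithmic), with 1 panel for each mutant library and 28 genes in each. In mutant C the points fall from Tyrobp at 2.83 to Zeb2 at -1.18, and in mutants D and Q they show no such slope.

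Among surface and trafficking members, mutants D and Q lay below every wild type for Ly6c2 and F13a1 and above every one for Cx3cr1. Without mutant C, the groups of 31.0% of tested members did not overlap, beside 28.8% of all genes. Ly6c2, which encodes the Ly6C antigen of inflammatory monocytes (chromosome 15, 75108158 to 75111970), had 2.35, 2.08 and 2.19 CPM in wild types A, F and L and 4.63, 0.765 and 0.868 CPM in mutants C, D and Q. These rest on 59, 33 and 37 counts in wild type and 42, 16 and 28 in the mutants. Mutants D and Q lay below every wild type and mutant C above every one. The log2 change was -0.21 (SE 0.71) with all 6 libraries and -1.43 (SE 0.29, 95% interval -2.10 to -0.76) without mutant C, with edgeR adjusted p of 0.870 and 0.106. In TPM, Ly6c2 was at 7.57, 5.42 and 5.22 in wild type, against 3.95, 2.44 and 2.49 in the mutants, so on that per-length scale all 3 mutants lay below. The share of all genes with this order in TPM was not counted. On the log2(TPM + 0.5) scale the change of Ly6c2 was -0.93, where the median of all genes was -0.56. The near-identical neighbour Ly6c1 had 2, 5 and 4 counts in wild type and 0, 1 and 0 in the mutants and was too low to test.

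Cx3cr1, the fractalkine receptor of patrolling monocytes (chromosome 9, 119901616 to 120069879), had 40.6, 39.5 and 40.0 CPM in wild type and 34.1, 59.7 and 44.9 in mutants C, D and Q. Mutants D and Q were above every wild type, mutant C was below. Its log2 change was 0.21 (SE 0.22) with all 6 libraries and 0.37 (SE 0.12, 95% interval 0.10 to 0.64) without mutant C, with edgeR adjusted p of 0.626 and 0.311. Ccr2, the chemokine receptor that brings monocytes out of the marrow, had 118, 112 and 111 CPM in wild type and 121, 118 and 102 in the mutants, with a log2 change of 0.00 (95% interval -0.36 to 0.36), or -0.06 without mutant C. The Ccr2 groups overlapped, and its interval was among the narrowest with all 6 libraries. Itgam, the CD11b integrin chain, had 39.4, 43.8 and 40.4 CPM in wild type and 25.1, 42.1 and 26.2 in the mutants. Mutants C and Q were below every wild type and mutant D lay within them. The log2 change was -0.40, or -0.29 without mutant C, and the edgeR adjusted p was 0.578, or 0.614 without mutant C.

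F13a1 had 235, 243 and 216 CPM in wild type and 223, 209.6 and 158 in mutants C, D and Q. Mutants D and Q lay below the wild types, and mutant C lay inside their range. Its log2 change was -0.23 (SE 0.19) with all 6 libraries and -0.34 without mutant C (SE 0.13, 95% interval -0.64 to -0.04), with an edgeR adjusted p of 0.431. Ly86 encodes MD-1, the partner of the Toll-like receptor relative CD180, and had 22.5, 26.4 and 29.6 CPM in wild type, 155 in mutant C, and 31.9 and 25.6 in mutants D and Q. The log2 change of Ly86 was 1.43 (SE 0.70) with mutant C and 0.13 (SE 0.14) without it.

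The Ly6c pair and the lysozyme pair were compared by coding sequence, as near-identical neighbours, since RSEM can divide their reads between the copies and leave their values uncertain. Other related members, such as the Ms4a6 genes, were not compared. The coding sequences of Ly6c1 and Ly6c2 (GENCODE M21) are both 393 bases long and identical at 384 of them (97.7%), and 47.1% of the 50-base windows of Ly6c1 also occur in Ly6c2. Those of Lyz1 and Lyz2 are both 444 bases long and identical at 422, with 20.3% of such windows shared. The first 90 coding bases of each are printed with the differing bases in capitals. They hold 6 of the 9 differing bases of the Ly6c pair and 7 of the 22 of the lysozyme pair.
Ly6c1: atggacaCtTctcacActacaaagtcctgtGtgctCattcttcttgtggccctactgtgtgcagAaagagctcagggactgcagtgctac
Ly6c2: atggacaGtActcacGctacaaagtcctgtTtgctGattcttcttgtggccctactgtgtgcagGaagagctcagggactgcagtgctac
Lyz1: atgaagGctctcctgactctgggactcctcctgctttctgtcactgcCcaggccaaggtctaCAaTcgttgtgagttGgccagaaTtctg
Lyz2: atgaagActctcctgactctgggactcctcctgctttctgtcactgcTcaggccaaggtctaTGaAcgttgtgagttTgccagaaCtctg

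Of the 5 tested members above wild type in every mutant (17.9%, beside 10.6% of all genes), 3 were in the Fc receptor group. Tyrobp, Fcer1g and Fcgr4 (564, 674 and 1256 bases) are among the 14 members under 1500 bases. All of those were above the wild-type mean in mutant C. Tyrobp and Fcer1g encode small transmembrane adaptors that carry ITAM signalling motifs for receptors lacking their own, and both lay above wild type in all 3 mutants. Tyrobp (chromosome 7, 30413760 to 30417585) had 61.6, 86.3 and 87.0 CPM in wild type and 555, 106 and 104 in mutants C, D and Q. Mutants D and Q were close to each other, and mutant C was 5.29-fold above their mean. The log2 change was 1.70 (SE 0.70, 95% interval 0.02 to 3.39) with all 6 libraries and 0.42 (SE 0.14, 95% interval 0.09 to 0.76) without mutant C, with edgeR adjusted p of 0.578 and 0.371.

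Fcer1g (chromosome 1, 171229572 to 171234365) had 37.9, 42.4 and 45.1 CPM in wild type and 225, 51.2 and 51.2 in mutants C, D and Q. Mutants D and Q had equal values above the highest wild type, and mutant C was 4.39-fold above their mean. The log2 change was 1.38 (SE 0.61) with all 6 libraries and 0.29 (SE 0.08, 95% interval 0.10 to 0.48) without mutant C, with edgeR adjusted p of 0.578 and 0.266. Fcgr4 (chromosome 1, 171018920 to 171029761), an activating receptor of nonclassical monocytes that signals through the Fcer1g chain and whose promoter is printed above, was low throughout. It had 0.716, 1.01 and 1.24 CPM in wild type and 4.52, 1.86 and 1.83 in mutants C, D and Q, on 16 to 21 counts in each wild type and 39 to 59 in each mutant. The mutants lay above every wild type, with or without mutant C, and the log2 change was 1.42 (SE 0.47, 95% interval 0.30 to 2.55) or 0.91 (SE 0.33, 95% interval 0.14 to 1.68). The edgeR adjusted p was 0.578 or 0.413. Fcgr1, the high-affinity IgG receptor CD64, had 8.31, 6.56 and 6.81 CPM in wild type and 14.3, 8.08 and 5.80 in the mutants, so its groups overlapped. Its log2 change was 0.36 with mutant C and -0.08 without it.

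The order of mutant above wild type in every library was found in 5 of the 28 tested members with all 6 libraries (17.9%, beside 10.6% of all genes), namely Fcgr4, Fcer1g, Tyrobp, Cyba and Ncf1. No tested member was below in every mutant, beside 11.4% of all genes. Without mutant C, the groups of 9 of 29 members did not overlap (31.0%, beside 28.8% of all genes). Of these, 7 were above (24.1%, beside 1698 of 12614 genes), the same 5 with Cx3cr1 and Mrc1, and 2 were below (6.90%, beside 15.4% of all genes), namely Ly6c2 and F13a1. Among all 37, tested or not, 8 lay above wild type in every mutant (the 5 tested with all 6 libraries, with C1qc, Timd4 and Vcam1), 1 lay below (Ly6c1), and the groups of 28 overlapped. C1qc, Timd4, Vcam1 and Ly6c1 had at most 9 counts in any wild type. The share of all genes, tested or not, was not counted for these patterns.

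**Figure D3:**
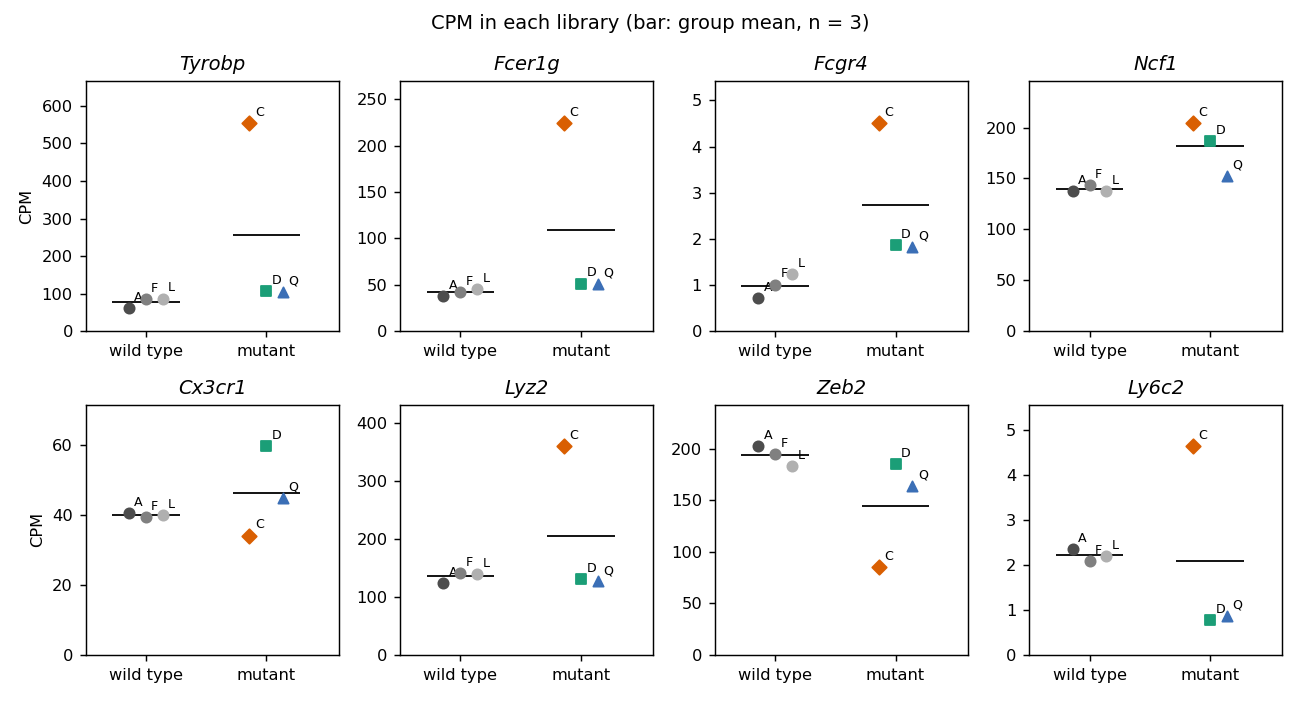
CPM of 8 members in each library (y axis from 0, points for libraries, horizontal bars for group means of n = 3), with wild types A, F and L at left and mutants C, D and Q at right in each panel. Tyrobp, Fcer1g, Fcgr4 and Ncf1 lie above wild type in all 3 mutants, and Ly6c2 lies below only in mutants D and Q.

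The phagocyte oxidase makes superoxide from a membrane pair, gp91phox (Cybb) and p22phox (Cyba), and the cytosolic subunits p47phox (Ncf1) and p40phox (Ncf4). Ncf1 (chromosome 5, 134220053 to 134229625) had 138, 143 and 137 CPM in wild type and 205, 187 and 153 in mutants C, D and Q. All 3 mutants lay above the wild types, and mutant C was not far from mutant D. The log2 change was 0.38 (SE 0.17) with all 6 libraries and 0.28 (SE 0.10, 95% interval 0.04 to 0.51) without mutant C, with edgeR adjusted p of 0.578 and 0.409. On the log2(TPM + 0.5) scale Ncf1 turned to -0.26, where the median of all genes was -0.56.

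Cyba had 56.1, 58.0 and 63.2 CPM in wild type and 191, 64.7 and 67.1 in the mutants. The mutants D and Q exceeded the highest wild type by little, and the log2 change of Cyba was 0.86 with all 6 libraries and, without mutant C, 0.15 (95% interval -0.03 to 0.33). Cybb had 43.6, 38.2 and 38.7 CPM in wild type and 29.3, 52.4 and 35.4 in the mutants, with overlapping groups and log2 changes of -0.04 and, without mutant C, 0.11. Ncf4 had 33.0, 30.1 and 33.6 CPM in wild type and 48.5, 32.5 and 29.9 in the mutants, also overlapping, with a log2 change of 0.19 and, without mutant C, -0.06 (95% interval -0.25 to 0.13).

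In CPM, none of the tested lysosomal and phagosomal members was separated from wild type in mutants D and Q. Lyz2, which digests bacterial cell walls, had 124, 142 and 140.1 CPM in wild type and 359.9, 131 and 127 in mutants C, D and Q. Mutant C was high, and mutants D and Q lay within the wild-type range. Its log2 change was 0.60 (SE 0.43) with all 6 libraries and -0.08 (SE 0.08, 95% interval -0.27 to 0.12) without mutant C. In TPM, Lyz2 was at 211.4 to 217.9 in wild type and at 188, 200.3 and 173 in the mutants, so on that scale all 3 mutants lay below. The share of all genes with this order in TPM was not counted. On the log2(TPM + 0.5) scale the change of Lyz2 was -0.20, where the median of all genes was -0.56. Lyz1 had 4 counts in wild type F, 3 in mutant D and 0 in the other 4 libraries.

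Mpeg1, the pore-forming perforin-2, had 65.2, 66.3 and 62.5 CPM in wild type and 55.9, 74.2 and 56.3 in the mutants, with log2 changes of -0.06 and, without mutant C, 0.00 (95% interval -0.27 to 0.28). Ctss, the protease cathepsin S, had 15.0, 15.6 and 16.8 CPM in wild type and 48.5, 19.2 and 14.9 in the mutants. Cd68, a glycoprotein of late endosomes, ran from 7.57 to 9.58 CPM in wild type and from 9.58 to 16.3 in the mutants. The groups of all 3 genes overlapped, Cd68 by the least. With and without mutant C, the log2 change was 0.79 and 0.10 for Ctss and 0.47 and 0.18 for Cd68. Lgals3, galectin-3, had 2.07, 1.45 and 2.66 CPM in wild type and 5.07, 1.15 and 1.49 in the mutants, and its log2 change turned from 0.23 to -0.64 (95% interval -1.44 to 0.16) when mutant C was left out. Slc11a1, the phagosomal metal transporter NRAMP1, had 7 to 14 counts in wild type and 7 to 29 in the mutants, with log2 changes of 0.74 and, without mutant C, 0.81.

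The MS4A membrane proteins lie in 1 cluster on chromosome 19. Ms4a6c was the most abundant, with 71.8, 60.5 and 57.2 CPM in wild type and 164, 66.7 and 53.7 in the mutants. Ms4a6b had 17.9 to 19.8 CPM in wild type and 52.8, 18.5 and 21.4 in the mutants, and Ms4a6d ran from 2.43 to 3.32 CPM in wild type and from 2.87 to 8.15 in the mutants. Mutant C was high for all 3, and their log2 changes were 0.58, 0.72 and 0.66 with it and -0.08, 0.10 and 0.04 without it. Ms4a7, a marker of mature macrophages, had at most 2 counts in any library.

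The C1q chains, which start the classical complement cascade and are made by tissue macrophages, were at a few counts in most libraries. C1qa had 6, 4 and 6 counts in wild type and 12, 4 and 6 in mutants C, D and Q, and C1qc had 3, 1 and 6 in wild type, against 17, 8 and 12 in the mutants. C1qb, the only chain tested, had 12, 9 and 9 counts in wild type and 27, 15 and 16 in the mutants, and its log2 change was 1.25 with all 6 libraries and, without mutant C, 0.18 (95% interval -0.76 to 1.13). With intervals this wide, a change of C1q was not detectable at this depth.

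Genes of tissue macrophages were low, and in TPM mutant Q had the highest value of 5 of the 7 (Mrc1, Msr1, Timd4, Vcam1 and Cd5l). Mrc1, the mannose receptor, had 32, 21 and 14 counts in wild type and 9, 36 and 81 in mutants C, D and Q, or 1.27, 1.32 and 0.829 CPM against 0.991, 1.72 and 2.51. Mutants D and Q were above every wild type. The log2 change of Mrc1 was 0.65 with all 6 libraries and, without mutant C, 0.88 (SE 0.33, 95% interval 0.10 to 1.66), with an edgeR adjusted p of 0.432, and without mutant Q it was 0.28.

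Vcam1, an adhesion molecule of the macrophages of erythroblastic islands and of endothelium, had 9, 5 and 7 counts in wild type and 5, 9 and 54 in the mutants. Cd5l, a secreted protein of liver macrophages, had 22, 7 and 6 counts in wild type and 6, 11 and 40 in the mutants. Msr1, a scavenger receptor, had 9, 5 and 7 counts against 12, 6 and 21, and Timd4, which binds phosphatidylserine on dying cells, had 2, 1 and 3 against 6, 4 and 14. Mutant Q, the deepest library, had the highest count of each of the 4, but in CPM mutant C was the highest for Msr1 (1.32, against 0.651 in mutant Q) and Timd4 (0.661 against 0.434). None of the 4 passed edgeR's filter on low counts with all 6 libraries.

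The sum of hepatoblast markers was also highest in mutant Q. The summed TPM of 15 hepatoblast genes was 193, 125 and 96.6 in wild type, against 126, 156 and 639 in mutants C, D and Q, with all 15 detected. Dlk1 was higher in wild type A than in mutant Q in TPM (73.2 against 63.0), but not in CPM (39.0 against 42.0). Albumin (Alb) had 26.8, 13.3 and 3.32 CPM in wild type and 60.8, 23.2 and 217 in the mutants. The part of such cells in the values of the tissue macrophage genes was not tested.

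Adgre1, the F4/80 antigen, had 5.92, 5.04 and 5.27 CPM in wild type and 9.36, 6.93 and 5.77 in the mutants, with a log2 change of 0.43 and, without mutant C, 0.21 (95% interval -0.20 to 0.63). Aif1, the actin-binding protein IBA1, had 0.557, 1.32 and 1.54 CPM in wild type and 5.07, 1.24 and 1.05 in the mutants. The groups of both genes overlapped, and the log2 change of Aif1 was 1.03 with mutant C and 0.03 without it. The summed TPM of the 7 tissue macrophage members was 7.64, 7.63 and 7.86 in wild type, against 6.87, 8.65 and 8.67 in the mutants.

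Zeb2, a zinc finger transcription factor that monocytes and plasmacytoid dendritic cells require, was the only transcription factor on the list. It had 202, 195 and 183 CPM in wild type and 85.5, 185 and 164 in mutants C, D and Q. Mutant C was at 0.490 of the mean of D and Q, and mutant D lay within the wild-type range. The log2 change was -0.42 (SE 0.30) with all 6 libraries and -0.16 (SE 0.09, 95% interval -0.37 to 0.05) without mutant C, with edgeR adjusted p of 0.583 and 0.581.

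**Figure D4:**
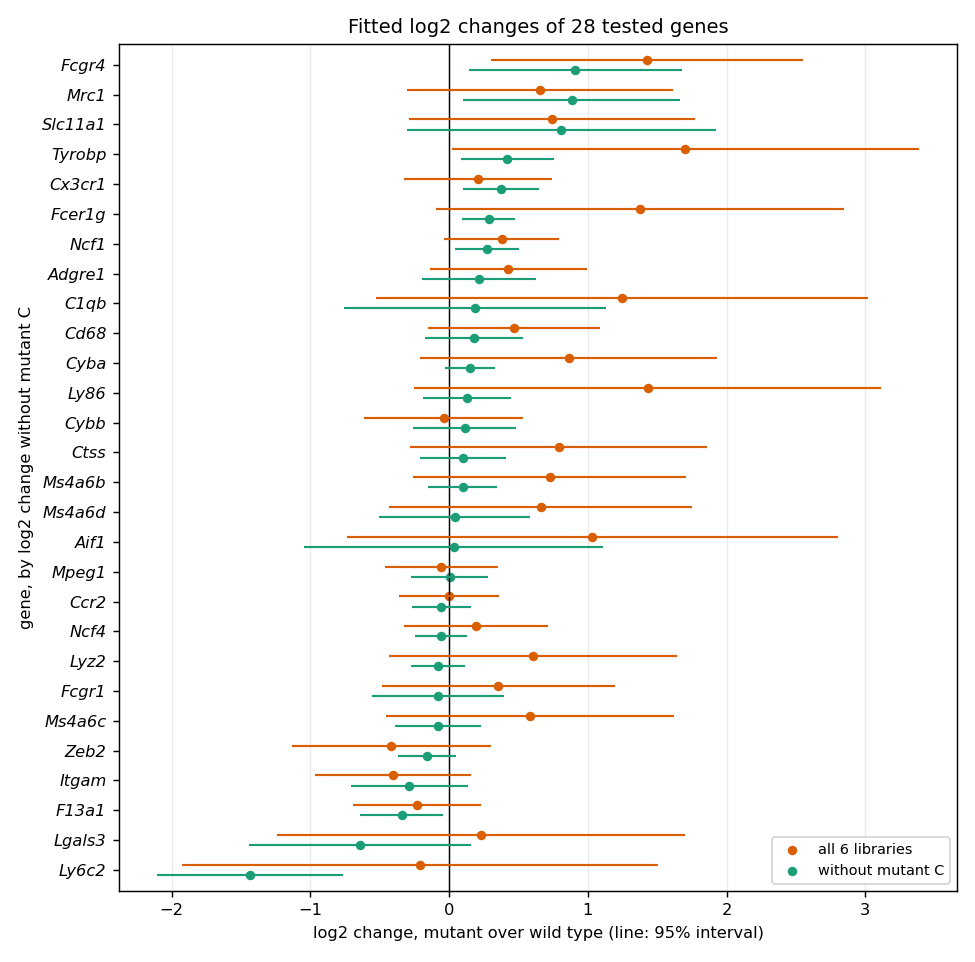
Fitted log2 change of mutant over wild type (x axis) for the 28 tested members, with 95% intervals, for all 6 libraries and without mutant C, ordered by the latter. The median width of the intervals was 2.02 with all 6 libraries and 0.65 without mutant C.

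The precision differed by fit. With all 6 libraries, the 95% intervals of 9 of the 28 members lay within a 2-fold change either way, and without mutant C those of 21 of the 28 did. Without mutant C, the unadjusted intervals of genes such as Ccr2, Lyz2, Mpeg1, Ncf4 and Cyba lay within 2-fold, on mutants D and Q alone. Those of Ly6c2, Fcgr4, Mrc1, Slc11a1, Lgals3, C1qb and Aif1 did not. With all 6 libraries, the intervals of Lyz2 (-0.43 to 1.64) and Cyba (-0.21 to 1.93) reached past 2-fold, and those of Ccr2, Mpeg1 and Ncf4 did not.

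Other genes of the same pathways were counted from lists of 83 genes, of which 70 were tested in each fit and 0 passed in edgeR in either. The CSF1 receptor and 10 monocyte transcription factors had a median log2 change of 0.11 with all 6 libraries, 8 of 11 above 0, and 0.18 without mutant C, 7 of 11 above 0. Spi1 had 118, 112 and 120 CPM in wild type (A, F and L) and 171, 138 and 132 in mutants C, D and Q, above wild type in all 3. Its edgeR adjusted p was 0.578, or 0.426 without mutant C. The log2 change was 0.33 with all 6 libraries, 0.20 without mutant C and -0.18 with the gene-length term. In TPM, Spi1 was at 265, 232 and 240 in wild type and at 131, 293 and 246 in mutants C, D and Q, so the groups overlapped. Irf8 had 153, 131 and 134 CPM in wild type and 147, 193 and 173 in the mutants, and Csf1r had 166, 156 and 146 against 149, 202 and 154. In both, mutant D was the highest library, and mutant C lay within the range of the wild types. Of 18 other genes of ITAM signalling, 17 were tested, with medians of -0.03 and 0.02 in the fits with and without mutant C.

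The 5 other oxidase genes had medians of 0.28 and 0.03, and 22 other lysosomal genes had medians of 0.20 and 0.02. Of 16 further genes of fetal liver and resident macrophages, 10 were tested, with medians of 0.30 and 0.03, and Vsig4, a receptor of liver macrophages, was at 0 in all 6 libraries. Among 4 partners of MD-1 and TLR4, 3 were tested, with medians of 0.23 and 0.08. Cd180, the receptor that MD-1 (Ly86) binds, had 38.0, 47.1 and 45.0 CPM in wild type and 48.0, 56.9 and 47.6 in the mutants. Of 7 ligands of monocyte receptors, 2 had enough counts to test.

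Markers of other cell types differed between the libraries too. The summed TPM of 15 neutrophil genes was 2412 to 3893 in wild type and 1261 to 2630 in the mutants, with Retnlg at 0 throughout. That of 10 dendritic cell genes was 79.6 to 91.8 and 28.1 to 93.5. The lowest value of each sum was that of mutant C. In CPM the groups overlapped for each. The neutrophil sum was 2429 to 3529 CPM in wild type and 2673 to 2831 in the mutants. The dendritic cell sum was 138 to 169 CPM and 144 to 171. The summed TPM of 7 mast cell and basophil genes, Gata2 among them, was 171 to 222 in wild type and 13.4 to 21.3 in the mutants. That of 9 megakaryocyte genes was 102 to 117 and 17.2 to 54.2. The summed TPM of 13 erythroid genes was 1280 to 2572 in wild type and 801 to 2235 in the mutants. Without mutant C all 13 had log2 changes below 0 and 5 were called lower by edgeR (Klf1, Epor, Gata1, Rhag and Ermap). By the same fit, 5 megakaryocyte and 5 mast cell genes were called lower. The part of these marker differences in the members' values was not tested.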

How the data were processed

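Expected counts per gene were estimated by the authors and deposited without normalization, per the file headers. TPM values, scaled by the authors to a common total, were deposited in the same files. Other deposited columns used were gene lengths. Per the submitters' processing notes, the tools were RSEM 1.2.18, Bowtie 1.1.1 and CASAVA 1.8.2, and the build was mm10. Strandedness, layout and annotation release are not stated there, so reads of overlapping antisense genes cannot be told apart. Symbols matched 24448 of 24815 identifiers. Gene positions are from GENCODE M21 and promoters from RefSeq (GRCm38.p6).

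Expected counts were rounded, filtered by filterByExpr (minimum count 10), scaled by TMM (factor 0.614 in mutant C, 1.06 to 1.17 elsewhere) and tested with edgeR 4.0.16 (R 4.3.3) by the quasi-likelihood test, with Benjamini-Hochberg adjustment over all genes and a threshold of 0.05. Intervals are 95% and not adjusted. The labels' replicate letters differ between groups, so nothing was paired. Libraries of 1 group differed by a chi-square of at least 9.25 per gene, above counting noise, so each counted as 1 sample. Alternatives were DESeq2 1.42.0, limma-voom and limma 3.58.1 on log2(TPM + 0.5), RLE scaling, no filter, a gene-length offset (lowess span 0.3), each library left out, and, chosen after seeing the data, the offset without mutant C. The edgeR code was tested on simulated data. Members and lists were chosen with earlier results of these data known. Any member could be named, and of other lists the genes called in either fit, the 3 most abundant, and Gata2. Vsig4 and Retnlg were named after their values were seen. Values of some list genes are not reported here.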

Additional observations from a re-analysis of the deposited data

How the results depend on the processing

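No member was called in edgeR or in any of the 13 other settings, where the smallest adjusted p was 0.0797 (Ly6c2, gene-length offset without mutant C). No paired analysis was possible because the groups share no replicate label. The 5 members above wild type in every mutant became 9 with no filter, 3 in TPM and 6 to 11 with a library left out (8 without mutant D, 11 without mutant Q, 8 without wild type A). The 0 below became 2 with no filter, 2 with the length offset, 5 in TPM (Ly6c2, F13a1, Lyz2, Ms4a6d and Zeb2), 5 with the offset and no mutant C, and 0 to 4 with a library left out (2 without mutant C, 4 without mutant D, 2 without wild type L). For these patterns the share of all genes was counted only with all 6 libraries and without mutant C. The counts in the other settings are therefore not read as results about the members. The median of 0.53 became -0.20 in TPM, where the median of all genes was -0.56, and 0.10 to 0.62 with a library left out. With any library other than mutant C left out, edgeR called 0 genes in all.

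The sign of single members' log2 changes also turned. Under RLE scaling Ccr2 was 0.032 and under DESeq2 0.024. Under limma-voom Lgals3 was -0.16. With the length offset, Ccr2 was 0.19, F13a1 0.054, Cybb 0.26, Cyba -0.032, Ncf4 -0.21, Mpeg1 0.24, Cd68 -0.0096 and Lgals3 -0.52. In TPM, Cx3cr1 was -0.44, Fcgr1 -0.31, Ncf1 -0.26, Ncf4 -0.45, Lyz2 -0.20, Ctss -0.024, Cd68 -0.14, Lgals3 -0.48, Ms4a6b -0.021, Ms4a6c -0.21, Ms4a6d -0.14 and Adgre1 -0.19. With the offset and no mutant C, Fcgr1 was -0.070, Cybb 0.16, Ncf4 -0.12, Lyz2 -0.14, Mpeg1 0.044, Lgals3 -0.74, Ms4a6c -0.11, Ms4a6d -0.023 and Aif1 -0.065.

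With a library left out, Ccr2 ran from -0.055 to 0.076, Cx3cr1 from -0.014 to 0.37, Ly6c2 from -1.43 to 0.22, Fcgr1 from -0.079 to 0.62, Cybb from -0.31 to 0.11, Ncf4 from -0.057 to 0.33, Lyz2 from -0.077 to 0.87, Mpeg1 from -0.20 to 0.013, Lgals3 from -0.64 to 0.60 and Ms4a6c from -0.082 to 0.88. The sign of Ly6c2 turned when mutant D or mutant Q was left out. The cause of these turns was not tested. With all 6 libraries, 9 members fell under edgeR's filter on low counts. They were fitted by DESeq2 and with no filter, and some of them also by edgeR in fits that left a library out. None was called in any of these.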
